A study of Mus musculus with 8 samples.

Results

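The neuromuscular junction genes described here are 10 genes of 49315 counted gene identifiers: the acetylcholinesterase gene Ache and its collagen anchor Colq, the muscle acetylcholine receptor subunits Chrna1, Chrnb1, Chrnd, Chrne and Chrng, and the receptor clustering genes Musk, Rapsn and Dok7. They were chosen by function, with the lower level of Ache after detergent already known, so the comparison of the groups describes them and does not test them. RNA of whole esophagus of wild-type mice was sequenced as 5 libraries from untreated mice (plain drinking water) and 3 libraries from mice given the household detergent sodium dodecyl sulfate (SDS) at 0.5% in drinking water, with day 14 as the time label of both groups. No transgene or deletion is named in either group. The labels name no strain, sex or age and do not say whether each library is a separate animal, so the spread given is that between libraries and may be technical.

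At the neuromuscular junction a motor nerve ending releases acetylcholine onto receptors packed in the muscle membrane, and acetylcholinesterase held in the cleft by ColQ breaks the transmitter down. Agrin from the nerve binds LRP4 on the muscle, which activates the kinase MuSK with the help of DOK7, and rapsyn then holds the receptors together. The muscle coat of the mouse esophagus is largely striated, and its fibers carry such junctions, which in this organ receive enteric as well as vagal nerve endings. The receptor holds 2 alpha subunits, a beta and a delta subunit, and an epsilon subunit in the adult that replaces the gamma subunit of fetal and denervated muscle.

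Each library held between 22033866 and 29802362 counts. Most markers of striated muscle, the tissue that carries these junctions, were lower in the SDS libraries. The summed level of 30 genes was 45440 to 62430 CPM (the usual unit of counts scaled to library size) in controls. It was 38850, 31050 and 21590 CPM in SDS libraries 1, 2 and 3. The log2 fold change was negative for 27 of the 30 (median -0.78). It was positive for the slow-fiber troponins Tnnc1 (1.655 ± 0.80, SE), Tnnt1 (1.20 ± 1.12) and Tnni1 (0.16 ± 0.77). Ckm, the muscle creatine kinase used as reference below, measured 4017 to 5899 CPM in controls and 3241, 2260 and 2190 CPM with SDS, and the skeletal actin Acta1 9451 to 13050 CPM and 8879, 7456 and 3093 CPM. Neither passed across all genes (edgeR quasi-likelihood with Benjamini-Hochberg adjustment, adjusted p = 0.0901 for Ckm and 0.252 for Acta1), and in whole tissue fewer muscle fibers and less RNA per fiber cannot be told apart. The smooth muscle sum was 3184 to 9213 CPM in controls and 2106 to 4605 CPM with SDS. The log2 fold change was negative for 10 of its 10 genes (median -0.71), with 0 called by edgeR (3 at an unadjusted p under 0.05, and 2 by DESeq2). The squamous epithelium sum was 42050 to 140000 CPM and 91220 to 154800 CPM, with 8 of 10 genes positive (median 0.21). Of these 10, edgeR called 1, Krt14, higher with SDS, and DESeq2 called 2 higher. The red blood cell sum was 93.8 to 429 CPM and 88.0 to 469 CPM, with 5 of 5 tested genes positive (median 0.48) and 0 called. The adipocyte sum was 242 to 6278 CPM in controls and 236 to 1860 CPM with SDS, with a negative log2 fold change for 11 of 11 genes (median -1.12) and 0 called by edgeR or DESeq2 (0 at an unadjusted p under 0.05). The Schwann cell sum was 269 to 376.5 CPM and 270 to 297 CPM, with 10 of 11 negative (median -0.31) and 0 called by edgeR (1 at an unadjusted p under 0.05, and 1 by DESeq2). The esophageal keratin Krt13 was at 19390 CPM or more in every library, while 13 markers of thyroid, airway, stomach and other neighbouring organs summed to at most 12.2 CPM, with Pth and Gif at 0 counts. How far smooth muscle, epithelial, blood, fat or Schwann cell content enters the values below was not tested, and muscle content enters only where a muscle covariate or reference gene is named.

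Per kilobase of exon, the beta subunit was the most abundant of the 10 transcripts and the gamma subunit the least. In control libraries Chrnb1 stood at 13.7 ± 2.23 CPM per kilobase of exon (SD, n = 5), followed by Rapsn at 8.21 ± 1.61, Ache at 6.66 ± 0.800, Chrna1 at 5.57 ± 1.05, Musk at 5.22 ± 1.24, Dok7 at 4.72 ± 1.12 and Chrnd at 2.90 ± 0.760. Colq at 0.827 ± 0.203, Chrne at 0.799 ± 0.241 and Chrng at 0.246 ± 0.165 formed the low end. The control ranges of neighbours in this order did not overlap between Chrnb1 and Rapsn or between Chrnd and Colq. They overlapped for the other 7 neighbouring pairs, whose order is within the spread of the libraries. With SDS the highest and lowest genes were again Chrnb1 (9.96 ± 4.15, SD, n = 3) and Chrng (0.316 ± 0.187). Ache, with rank 5, stood at 2.85 ± 0.201 CPM per kilobase, below Chrna1 at 3.75 ± 1.33 and Musk at 3.15 ± 0.709. The SDS range of Ache (2.67 to 3.07) lay inside those of Chrna1 (2.35 to 4.99) and Musk (2.615 to 3.955). Its rank is thus within the spread of the libraries. With the longest coding length of each gene, the mean log2 ratio of Chrne to Chrng was 0.66 in controls and -0.15 with SDS. By these means Chrng stayed below Chrne in controls, while its place below Chrne with SDS rests on the length used. Coding length was used for Chrne and Chrng only, so how far the other ranks rest on exon length was not tested.

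**Figure D1:**
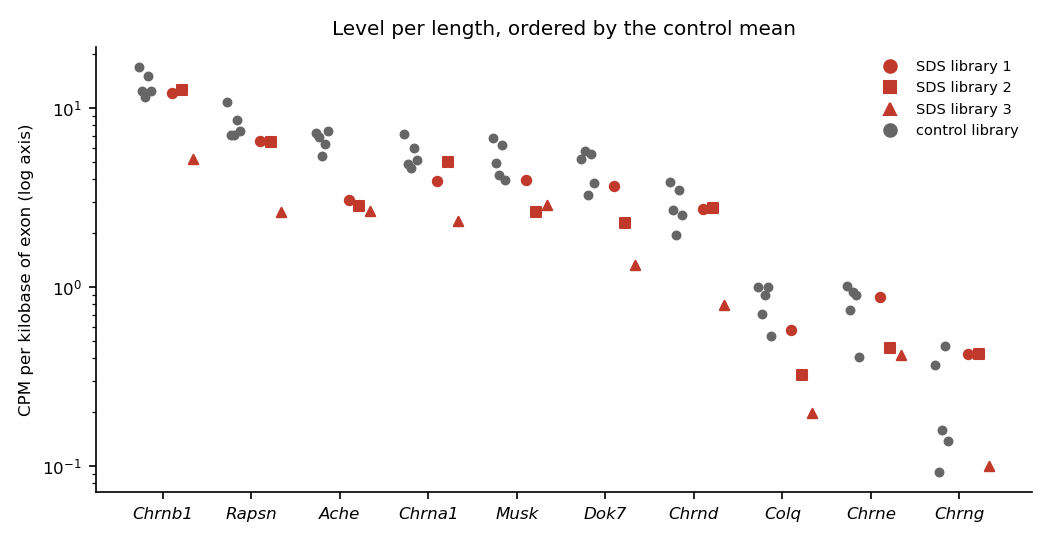
Level per kilobase of exon (log axis) of each gene in the 5 control libraries (grey) and in SDS libraries 1, 2 and 3 (red circle, square, triangle), ordered by the control mean. Chrnb1 leads, and Colq, Chrne and Chrng are at or below 1.01 CPM per kilobase in every library.

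All 10 genes lie on autosomes and were counted over their exons on mm10. Ache (ENSMUSG00000023328) lies on chromosome 5 from 137287519 to 137294466 and Colq (ENSMUSG00000057606) on chromosome 14 from 31523082 to 31591343. Chrnd (ENSMUSG00000026251) and Chrng (ENSMUSG00000026253) are neighbours on chromosome 1, from 87190607 to 87200070 and from 87204657 to 87212694. Chrnb1 (ENSMUSG00000041189, 69784036 to 69795943) and Chrne (ENSMUSG00000014609, 70614883 to 70619216) share chromosome 11, and Chrna1 (ENSMUSG00000027107, 73563215 to 73580338) and Rapsn (ENSMUSG00000002104, 91035620 to 91045729) share chromosome 2. Musk (ENSMUSG00000057280) lies on chromosome 4 from 58285960 to 58374303 and Dok7 (ENSMUSG00000044716) on chromosome 5 from 35056766 to 35087839. Exons of Colq overlap those of Hacl1 over 199 bp on the same strand, and how reads there were divided is not known. Ache shares 98 bp with the opposite-strand Gm42456, which held at most 1 count in a library.

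RefSeq promoter windows (GRCm38.p6, 250 bases before to 50 after a start site) were found for 7 of the 10 genes. Dok7 had 2 windows, and a gene was counted when any of its windows matched, while the shares are of single windows. The E-box letters CANNTG, bound by muscle regulatory factors such as myogenin, were present on either strand for 7 of 7 genes. They were absent from window 2 of Dok7 and present in 72.3% of all 32851 windows. The form CAGCTG, which is also counted among the CANNTG matches, was present for 4 of 7 (Chrna1, Chrne, Chrng and Musk) and in 16.3% of all windows. The N-box CCGGAA, known as an element of synapse-specific genes, was present for 1, Chrne, and in 14.9% of all windows. The GC box GGGCGG was present for 3 (Ache, Chrnb1 and Dok7) and in 35.7% of all windows. A match describes letters only and does not show a bound site. For Ache and Chrng the deposited gene begins upstream of the RefSeq start site used, so the stretch shown lies within the deposited gene span. The stretches before the start site are shown for the esterase and for 3 receptor subunits whose values are contrasted below, without bases that the deposited tables count as exon, 5′ to 3′ on the gene's strand, with CANNTG and CCGGAA matches in capitals.
Ache, chr5:137288058-137288253, plus strand: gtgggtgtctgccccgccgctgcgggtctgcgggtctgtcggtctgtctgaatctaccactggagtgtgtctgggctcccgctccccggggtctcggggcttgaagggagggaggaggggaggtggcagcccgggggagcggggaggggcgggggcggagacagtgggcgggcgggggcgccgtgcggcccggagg
Chrna1, chr2:73580339-73580588, minus strand: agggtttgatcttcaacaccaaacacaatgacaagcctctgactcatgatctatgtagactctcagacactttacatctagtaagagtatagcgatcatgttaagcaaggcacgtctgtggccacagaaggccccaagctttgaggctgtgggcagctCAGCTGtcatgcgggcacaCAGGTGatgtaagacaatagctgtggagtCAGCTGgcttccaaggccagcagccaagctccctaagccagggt
Chrne, chr11:70619217-70619444, minus strand: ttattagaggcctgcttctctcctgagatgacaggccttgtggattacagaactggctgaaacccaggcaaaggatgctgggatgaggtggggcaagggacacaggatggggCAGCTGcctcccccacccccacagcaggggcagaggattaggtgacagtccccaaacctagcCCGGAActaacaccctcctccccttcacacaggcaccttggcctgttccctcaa
Chrng, chr1:87205561-87205809, plus strand: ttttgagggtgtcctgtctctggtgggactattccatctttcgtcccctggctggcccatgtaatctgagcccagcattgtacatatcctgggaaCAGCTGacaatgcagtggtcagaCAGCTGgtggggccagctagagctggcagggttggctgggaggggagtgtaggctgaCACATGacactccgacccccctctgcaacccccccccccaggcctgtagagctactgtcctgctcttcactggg
The Ache stretch holds 0 capitals, because its single E-box runs across the border with the exon bases left out, and it holds 4 GC boxes, whereas the Chrna1 and Chrng stretches each hold 3 E-boxes, 2 of them CAGCTG, and no GC box. The Chrne stretch holds 1 CAGCTG and 1 N-box. That of the receptor subunit Chrnb1, not shown, holds 4 GC boxes as that of Ache does, with 3 E-boxes and 0 CAGCTG.

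Acetylcholinesterase transcripts were lower in every SDS library than in every control, with little spread. Ache measured 33.4, 31.7, 25.1, 29.3 and 34.3 CPM in control libraries 1 to 5 and 14.2, 13.04 and 12.35 CPM in SDS libraries 1 to 3. The SDS libraries lay close together and far below the lowest control. The control mean of 30.8 ± 3.70 CPM (SD, n = 5) was 2.33 times the SDS mean of 13.2 ± 0.929 CPM (SD, n = 3), a log2 fold change of -1.22 ± 0.13 (SE). In edgeR's quasi-likelihood fit across all genes 1 of the 10, Ache, was past the threshold, as were 0.425% of all 17179 tested genes in the lower direction. Nothing is read from this, since the lower Ache level was known when the genes were chosen. Ache was not past the threshold without control library 1 (log2 fold change -1.18), control library 2 (-1.21) or SDS library 2 (-1.21). With the muscle list as a covariate the log2 fold change of Ache was -1.105 ± 0.15 (SE).

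Colq encodes the collagen tail that anchors the esterase in the synaptic basal lamina. It measured 3.79, 2.70, 3.43, 3.79 and 2.02 CPM in the controls and 2.20, 1.23 and 0.751 CPM with SDS. The highest SDS library lay above the lowest control, so the groups overlapped. Its log2 fold change of -1.17 ± 0.38 (SE) had a larger error than that of Ache, and it was called by DESeq2 but not by edgeR. It was -0.88 without SDS library 3 and -1.66 without SDS library 1.

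**Figure D2:**
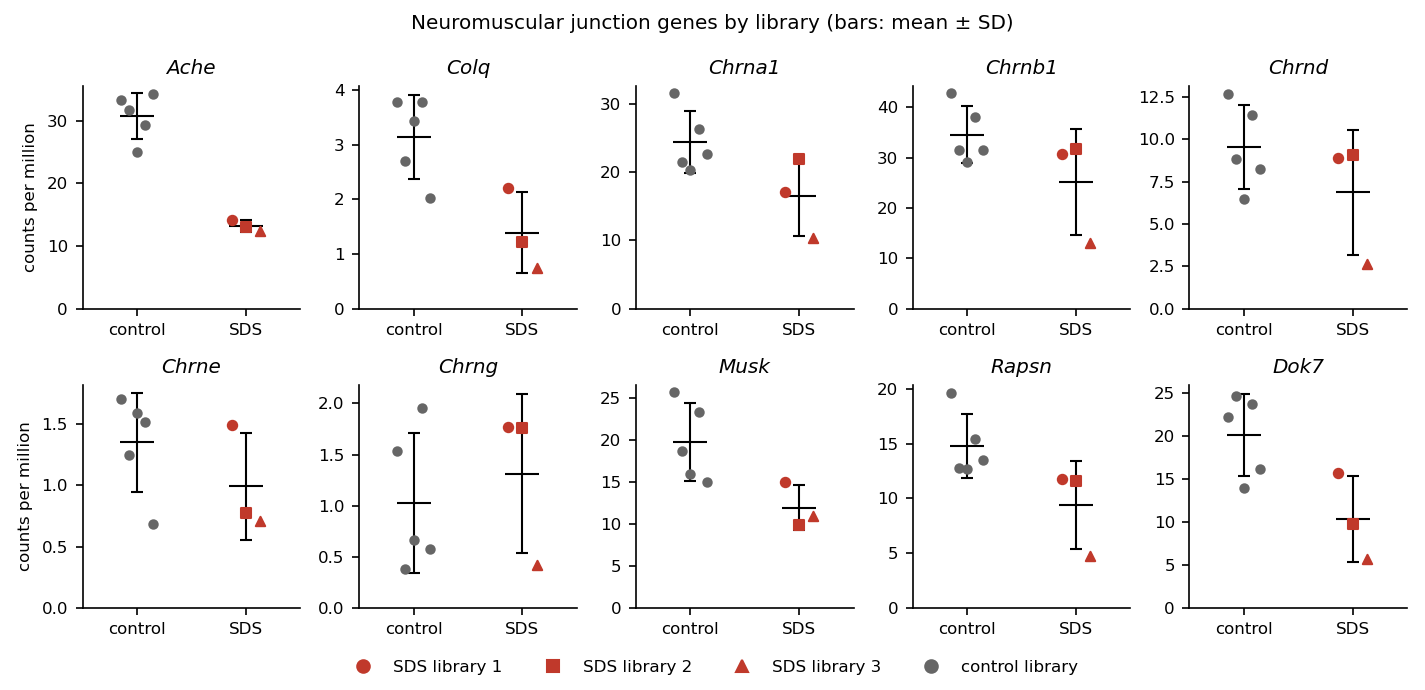
Level in CPM of the 10 genes in each library (grey: 5 controls; red circle, square and triangle: SDS libraries 1, 2 and 3), with mean ± SD in black and linear axes from 0. The 3 Ache values with SDS sit between 12.35 and 14.2 CPM. For Chrnb1, Chrnd, Chrng and Rapsn SDS library 3 lies well below SDS libraries 1 and 2.

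The common subunits of the receptor differed more among the SDS libraries than between the groups. Chrna1, the ligand-binding alpha subunit, measured 31.6, 21.4, 20.3, 26.3 and 22.6 CPM in the controls and 17.2, 21.9 and 10.3 CPM with SDS. SDS library 2 was within the control range, library 1 just below it and library 3 far below it, and the log2 fold change was -0.57 ± 0.25 (SE). Chrnb1, the beta subunit, measured 42.8, 31.4, 29.1, 38.05 and 31.6 CPM and then 30.8, 31.7 and 13.1 CPM with SDS. SDS libraries 1 and 2 lay among the controls, and the log2 fold change of -0.46 ± 0.28 (SE) was -0.14 without SDS library 3. Chrnd, the delta subunit, measured 12.7, 8.86, 6.46, 11.5 and 8.28 CPM in the controls and 8.92, 9.07 and 2.63 CPM with SDS. Again only library 3 lay below the controls, and the log2 fold change of -0.47 ± 0.40 (SE) was -0.08 without it. For Chrna1 that value was -0.32.

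The exchangeable subunits were rare. Chrne, the adult epsilon subunit, had 182 counts over the 5 controls and 77 over the 3 SDS libraries, with 1.71, 1.25, 1.59, 1.52 and 0.687 CPM in the controls and 1.49, 0.773 and 0.709 CPM with SDS. Every SDS value was inside the control range (log2 fold change -0.45 ± 0.38, SE). Chrng, the fetal gamma subunit, had 144 and 105 counts, with 1.54, 0.385, 0.665, 1.96 and 0.572 CPM in the controls and 1.77, 1.76 and 0.417 CPM with SDS. It was the only one of the 10 genes with a positive log2 fold change, 0.35 ± 0.62 (SE), and all 3 SDS values lay within the control range.

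The clustering genes were lower on average with SDS, and edgeR called 0 of the 3 (DESeq2 called Musk and Dok7). Musk, the receptor kinase for the agrin signal, measured 25.7, 18.7, 15.9, 23.35 and 14.95 CPM in the controls and 14.93, 9.87 and 10.9 CPM with SDS, with a log2 fold change of -0.73 ± 0.22 (SE). Its groups just failed to overlap, and library 3 was not the lowest SDS library here, unlike for the other 9 genes. Rapsn, the scaffold that binds the receptors, measured 19.6, 12.8, 12.7, 15.4 and 13.5 CPM in the controls and 11.8, 11.6 and 4.71 CPM with SDS (log2 fold change -0.66 ± 0.30, SE, and -0.33 without SDS library 3). SDS libraries 1 and 2 lay just under the lowest control. Dok7, the adaptor that activates MuSK, measured 22.3, 24.7, 14.0, 23.8 and 16.2 CPM in the controls and 15.7, 9.73 and 5.67 CPM with SDS. Library 1 was inside the control range, and the log2 fold change was -0.96 ± 0.33 (SE), or -0.67 without SDS library 3.

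Of the 10 genes, all of which passed the filter on low counts, 9 had a negative log2 fold change, against 50.7% of all tested genes. The median was -0.61, beside -0.005 over all tested genes and -0.78 over the striated muscle list. The group ranges did not overlap for 3, Ache, Musk and Rapsn, each lower with SDS, where 6.89% of all tested genes did so in that direction. DESeq2 called 4 of the 10 (Ache, Colq, Musk and Dok7), each lower, and called 3.96% of all genes lower and 4.86% higher. Without SDS library 3 edgeR again called 1 of the 10, Ache, where it called 6.92% of all genes, 1.94% lower and 4.98% higher. With the muscle covariate the log2 fold changes of Chrnb1 (0.08 ± 0.205, SE), Chrnd (0.33 ± 0.28) and Chrne (0.05 ± 0.41) turned positive. Those of Chrna1 (-0.12 ± 0.23) and Rapsn (-0.09 ± 0.23) came close to 0. Those of Colq (-0.60 ± 0.33), Musk (-0.29 ± 0.20) and Dok7 (-0.31 ± 0.20) were smaller in size, and that of Chrng was larger (1.64 ± 0.55). The covariate, the mean log2 CPM of the muscle list, was 8.58 to 9.37 in controls and 8.80, 8.35 and 7.71 with SDS. It differed with the group, so the 2 cannot be fully told apart. SDS library 3 held the lowest of all 8 values for 7 of the 10 genes. Relative to the control mean in log2 CPM, the 3 SDS libraries spanned 0.20 for Ache, 0.57 for Ckm and 0.59 for Musk, but 1.08 for Chrna1, 1.27 for Chrnb1, 1.31 for Rapsn, 1.52 for Acta1 and 1.76 for Chrnd.

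Set against Ckm in the same library, none of the 10 genes had group ranges that were apart. Ache gave 56.6, 56.0, 57.9, 72.7 and 85.4 counts per 10000 Ckm counts in the controls and 43.8, 57.7 and 56.4 with SDS. SDS libraries 2 and 3 were thus within the control range, and only library 1 lay below it. The mean log2 ratio of Ache to Ckm was -7.27 ± 0.27 (SD, n = 5) in the controls and -7.58 ± 0.22 (SD, n = 3) with SDS, a difference of -0.31 (-0.18 without SDS library 1). Colq (-0.35) and Dok7 (-0.14) also had lower mean ratios with SDS, but without SDS library 3 the difference was -0.09 for Colq and turned positive for Dok7 (0.13). The other 7 had higher ones, from 0.15 for Rapsn and 0.19 for Musk through 0.27 for Chrnd, 0.29 for Chrna1, 0.35 for Chrnb1 and 0.45 for Chrne to 1.26 for Chrng. Since Ckm itself was lower, 96.4% of all tested genes had a higher mean ratio to Ckm with SDS. The group ranges overlapped for each of the 10, whereas 50.9% of all tested genes had ranges apart and higher.

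Chrna1, Chrnb1, Chrnd, Chrng and Rapsn had their highest ratio to Ckm in SDS library 2. Chrnb1 measured 72.5, 55.6, 67.1, 94.4 and 78.7 counts per 10000 Ckm counts in the controls and 95.0, 140 and 59.8 with SDS. SDS libraries 1 and 2 exceeded every control and library 3 did not. Chrng showed the same order, with 2.604, 0.681, 1.53, 4.87 and 1.42 in the controls and 5.46, 7.77 and 1.90 with SDS. Musk spanned the least among the SDS libraries in log2 ratio, at 46.1, 43.7 and 49.7 with SDS against 33.1 to 58.0 in the controls. Control library 4 had the highest control ratio for 9 of the 10 genes. With the troponin Tnnt3 as reference the ranges of Ache no longer overlapped (-7.06 ± 0.23, SD, n = 5, and -7.62 ± 0.13, SD, n = 3), and with Acta1 as reference they did, with SDS libraries 1 and 2 (-9.29 and -9.16) below every control and library 3 (-7.97) above every control. Chrnb1 was apart and higher with SDS with Acta1 as reference (-8.34 ± 0.11, SD, n = 5, and -7.98 ± 0.17, SD, n = 3). Colq was apart and lower with the mean of the striated muscle list as reference (-7.32 ± 0.33, SD, n = 5, and -7.92 ± 0.23, SD, n = 3). For every other gene and reference of these 4 the ranges overlapped. The differences for Musk and Rapsn turned negative with Tnnt3 (-0.07 and -0.10) and with the muscle list (-0.06 and -0.10). In the order Tnnt3 and muscle list, the differences were 0.015 and 0.023 for Chrnd and 0.03 and 0.04 for Chrna1. They were 0.10 and 0.11 for Chrnb1, 0.20 and 0.20 for Chrne, and 1.00 and 1.01 for Chrng. Ckm itself was lower with SDS against both (-0.25 and -0.25) and level against Acta1 (0.005).

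**Figure D3:**
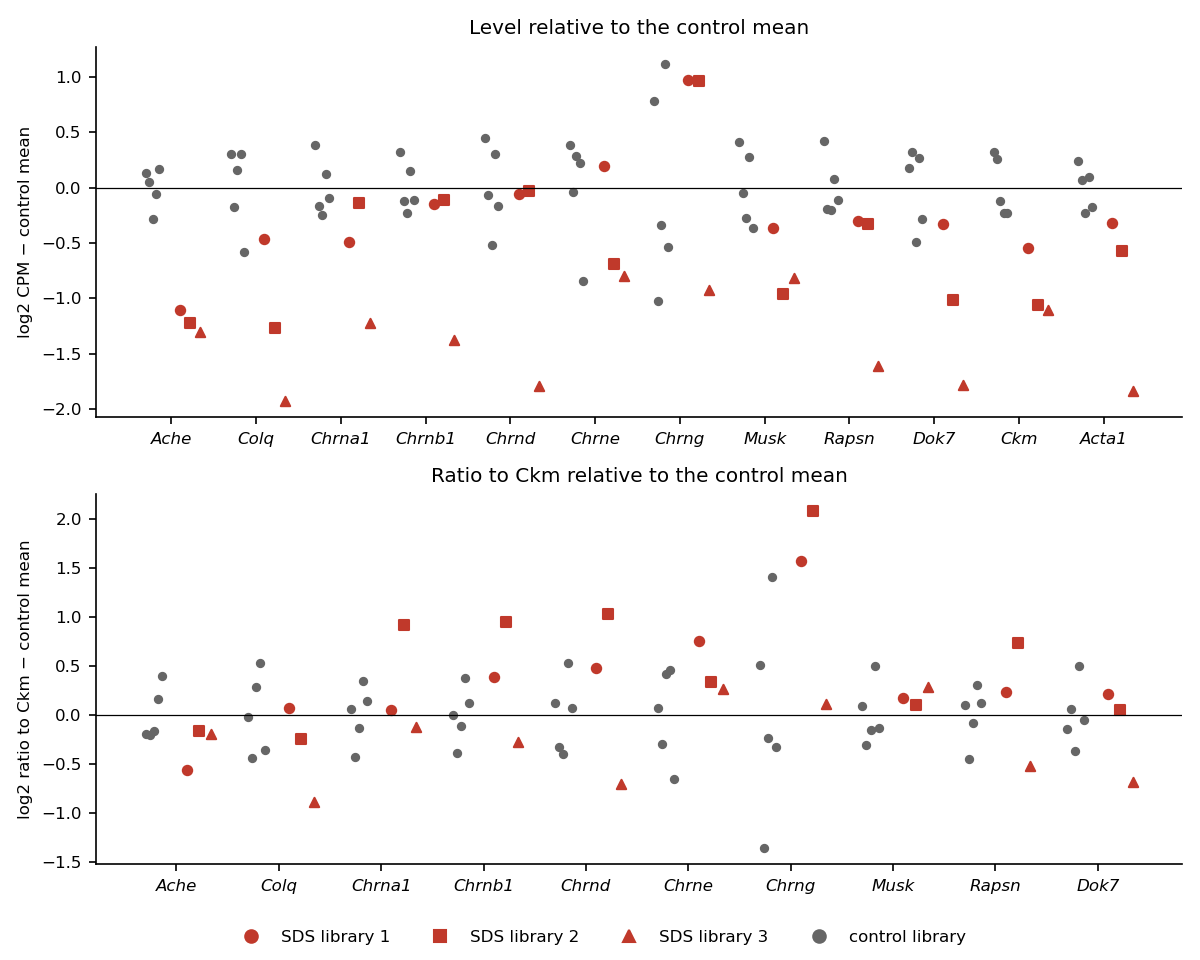
Top, log2 CPM minus the control mean for the 10 genes, Ckm and Acta1. Bottom, log2 ratio to Ckm minus its control mean for the 10 genes. Grey points are the 5 control libraries and red circles, squares and triangles SDS libraries 1, 2 and 3. Ache lies 1.10 to 1.30 below the control mean in the 3 SDS libraries at the top and among or near the controls at the bottom.

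The balance of adult and fetal subunit varied within each group. The log2 ratio of Chrne to Chrng per kilobase of exon was 1.45, 2.94, 2.53, 0.94 and 1.56 in the controls and 1.06, 0.13 and 2.04 with SDS. The ratio was positive in every library, and SDS library 2 lay below the lowest control. The means were 1.88 ± 0.83 (SD, n = 5) and 1.08 ± 0.95 (SD, n = 3), a difference of -0.81 that was smaller than the SD of the SDS libraries. It was -0.34 without SDS library 2, -0.54 without control library 2 and -1.29 without SDS library 3. The level of the ratio, unlike that difference, rests on the length used: with the longest coding length of each gene the means were 0.66 ± 0.83 and -0.15 ± 0.95, and SDS libraries 1 and 2 and control library 4 fell below 0. Counts of Chrng were as low as 8 in control library 2 and 10 in SDS library 3.

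Genes around the 10 in the same pathway gave no call by edgeR. Of 38 tested genes of agrin and MuSK signalling and the postsynaptic scaffold, 0 were called by edgeR's quasi-likelihood test (7 at an unadjusted p under 0.05), where 1.05% of all tested genes were called in either direction and 18.5% had such a p. DESeq2, which called 8.81% of all genes, called 4 of the 38. The median log2 fold change of the list was -0.20. Agrn, the ligand from nerve and muscle, measured 123 ± 21.4 CPM in controls and 106 ± 3.96 CPM with SDS, and its receptor Lrp4 73.1 ± 12.01 and 52.4 ± 3.74 CPM. The most abundant genes of the list were Ctnnb1, the beta-catenin also found at epithelial junctions (log2 fold change 0.29 ± 0.13, SE), and Plec, the cytolinker plectin (-0.55 ± 0.18, SE).

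Chat and Slc18a3, which define cholinergic nerve, were near 0. Of 28 genes of cholinergic motor and enteric nerve, 26 passed the filter and 0 were called by edgeR (2 at an unadjusted p under 0.05, and 2 by DESeq2), with a median of -0.22. Chat, which makes acetylcholine, had 8 counts over the 5 controls and 12 over the 3 SDS libraries, and the vesicle transporter Slc18a3 had 22 and 27. The choline transporter Slc5a7 had 72 and 33 counts. The neuron markers Prph and Uchl1 stood at 3.37 and 10.2 CPM on average in the controls. Cell bodies of vagal motor neurons lie outside the esophagus, but whether this bears on the low counts was not tested. The vesicle protein Vamp2 had a log2 fold change of -0.43 ± 0.12 (SE) and the calcium channel Cacna1a one of -0.89 ± 0.24 (SE). These are the genes that DESeq2 called and edgeR did not.

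Among neuronal nicotinic and muscarinic receptors 8 of 16 passed the filter and 0 were called by edgeR (3 at an unadjusted p under 0.05, and 1 by DESeq2), with a median of -0.67. Chrna9, a nicotinic subunit of hair cells and keratinocytes, measured 11.5, 15.1, 10.4, 9.60 and 10.03 CPM in the controls and 5.74, 2.21 and 4.17 CPM with SDS. Its groups did not overlap, and its log2 fold change of -1.49 ± 0.31 (SE) missed the threshold (edgeR quasi-likelihood, Benjamini-Hochberg adjusted p = 0.0584) and passed it without a filter on low counts (adjusted p = 0.0362). Chrm2, the muscarinic receptor of smooth muscle, ran from 1.40 to 102 CPM in the controls alone. Its highest value came from control library 4. The smooth muscle myosin Myh11 was also highest there, at 1827 CPM against 179 to 706 CPM in the other controls. So was the adipocyte gene Plin1, at 372 CPM against 0.960 to 80.3 CPM. The source of the Chrm2 spread was not tested.

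The list of cholinesterases, anchors and assembly partners had 8 tested genes, 0 called by edgeR (2 at an unadjusted p under 0.05, and 1 by DESeq2) and a median of -0.54. Its most abundant members were P4hb, a subunit of the prolyl hydroxylase that collagens need (log2 fold change 0.20 ± 0.26, SE), and perlecan, Hspg2, to which ColQ binds (-0.41 ± 0.45, SE). Bche, the related butyrylcholinesterase, measured 10.6 to 71.0 CPM in the controls and 10.3 to 27.3 CPM with SDS. Of 14 genes of the denervation response and subsynaptic transcription 0 were called by edgeR (4 at an unadjusted p under 0.05, and 3 by DESeq2), with a median of -0.45. Myh8, the perinatal myosin heavy chain, was abundant and stood at 9092 ± 1129 CPM in the controls and 4344 ± 1128 CPM with SDS (log2 fold change -1.07 ± 0.23, SE, edgeR quasi-likelihood, Benjamini-Hochberg adjusted p = 0.0596), and Cdkn1a had a log2 fold change of -0.48 ± 0.33 (SE). Myog, a regulator that rises in denervated muscle, measured 9.69 ± 2.81 and 6.37 ± 2.98 CPM. Of the 30 striated muscle genes 0 were called by edgeR (19 at an unadjusted p under 0.05, and 15 by DESeq2, each lower).

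**Figure D4:**
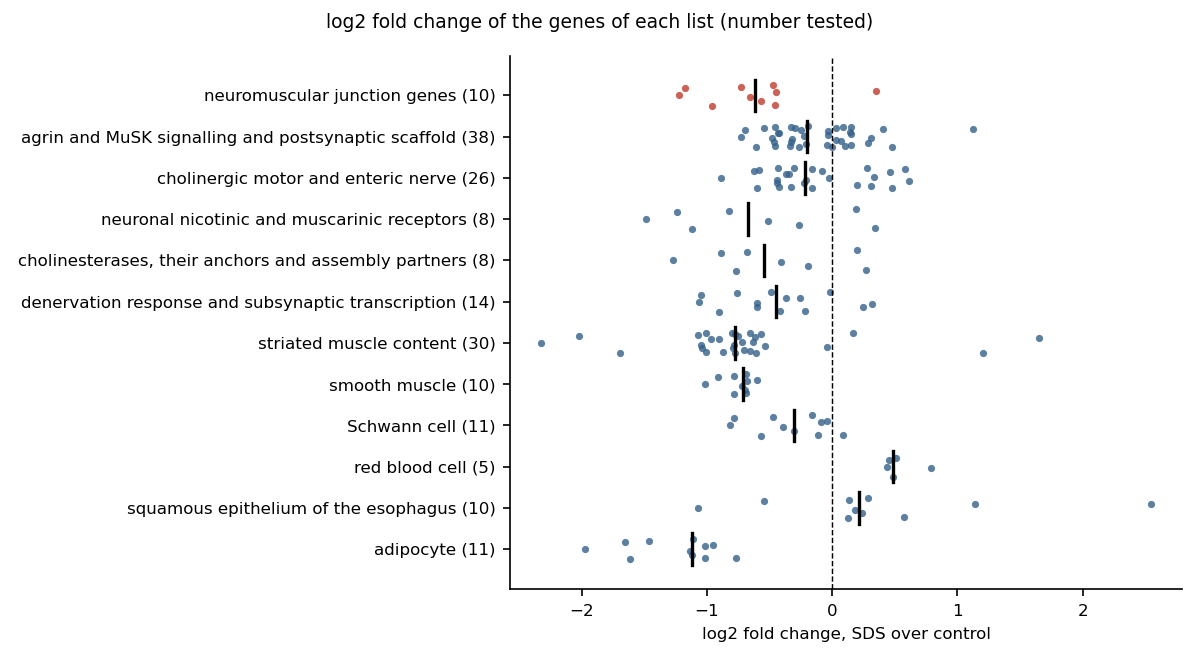
Log2 fold change (SDS over control) of each tested gene, by list, with the number tested in brackets, the list median as a black bar and the median of all tested genes as a dashed line. The neuromuscular junction genes (red) have a median of -0.61, between the agrin and MuSK list (-0.20) and the striated muscle list (-0.78).

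Likeness across libraries was described for Ache and for Chrna1. In log2 CPM with the group means removed, over 8 libraries and 11187 genes with a mean of at least 5 CPM, the genes most like Ache by Pearson's r were Nqo2 (0.96), Fzd10 (0.94), Ppm1k (0.93), Thap3 (0.93) and Hs1bp3 (0.92). Those most like Chrna1 were Eya4 (0.99), Zfp9 (0.99), Haghl (0.99), Fkbp14 (0.98) and Sharpin (0.98). Within the 10 genes, r with Chrna1 was 0.95 for Chrnb1, 0.95 for Rapsn, 0.94 for Chrnd, 0.85 for Chrng, 0.64 for Dok7, 0.58 for Colq, 0.42 for Ache, 0.39 for Musk and 0.32 for Chrne. The reference genes gave 0.85 (Acta1) and 0.30 (Ckm) with Chrna1, and 0.44 and 0.46 with Ache. The libraries share differences in tissue content, and with 8 of them the values of r describe these libraries only.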

How the data were processed

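RNA of whole esophagus was measured in 5 control and 3 SDS libraries, grouped by the titles and the treatment label. Per the labels' protocols, poly(A)-selected RNA went into NEBNext Ultra II RNA libraries, and the extraction text speaks of cell pellets. The authors deposited whole-number read counts for each gene, with the exon length of each gene in bases in the same deposited tables. Per the submitters' processing notes, STAR 2.6.1c, Subread and mm10 were used. No source used here gives the annotation release, the strand setting or the handling of multi-mapped reads.

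Symbols matched 48970 of 49315 identifiers. Tests ran in edgeR 4.0.16 under R 4.3.3 (filterByExpr, minimum count 10 and total 15, TMM, robust glmQLFit and glmQLFTest with group as the term, two-sided, Benjamini-Hochberg threshold 0.05). CPM used TMM-scaled library sizes, log2 CPM a prior count of 2, and log2 ratios to Ckm a prior of 0.5 counts. SE is the log2 fold change over the square root of F. At these depths 3 counts were 0.101 to 0.136 CPM, a limit that covers counting error only. The procedure was also run on simulated counts with known fold changes. The outcome is not reported here, so no assurance is drawn from it, and genes not called may still differ. Alternatives used DESeq2 1.42.0, limma 3.58.1 (voom), other scalings and filters, a replicate block, a muscle covariate, other reference genes and each library left out.

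The members, lists and tests were chosen with earlier results of these data known. Named genes were the 10 members, Ckm and Acta1, called genes of each list or else its 2 most abundant, and the 5 genes most like Ache and Chrna1. Others (Tnnt3, Tnnc1, Tnnt1, Tnni1, Agrn, Lrp4, Chat, Slc18a3, Slc5a7, Prph, Uchl1, Bche, Myog, Krt13, Myh11, Plin1) were named for their role after their values were seen. Mitr matched no identifier. Promoter windows came from RefSeq, and none was used for Colq, Chrnd and Rapsn.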

Additional observations from a re-analysis of the deposited data

How the results depend on the processing

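Over all genes 180 were called, against 1584 by DESeq2, 0 with a replicate block and 4 (without control library 1 or SDS library 2) to 1222 (without SDS library 3) with 1 library left out. Of the members 1 was called, against 4 by DESeq2, 0 with the replicate block and 0 to 1 with 1 library left out. Same-numbered libraries did not deviate together throughout (r = 0.31, -0.01 and 0.31 for numbers 1 to 3), so the numbers are not read as pairs. DESeq2 called 4, 2, 1, 1, 3 and 15 genes of the agrin, nerve, neuronal receptor, cholinesterase, denervation and striated muscle lists, where edgeR called 0. Without a filter 1 neuronal receptor gene (Chrna9) and 1 muscle gene (Eno3) were called, and limma-voom called 1 muscle gene (Eno3). Eno3 was named after its values were seen. With 1 library left out these lists had 0 to 2, 0 to 1, 0, 0 to 1, 0 to 1 and 0 to 1 calls, those above 0 without SDS library 3.

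The log2 fold change of Ache was -1.18 with the replicate block, not called, and -1.29 to -1.17 with 1 library left out. DESeq2 called Colq (-1.18), Musk (-0.73) and Dok7 (-0.96). The muscle covariate turned Chrnb1 (0.083), Chrnd (0.328) and Chrne (0.046) positive. With 1 library left out, the difference in log2 ratio to Ckm ran from -0.033 to 0.49 for Chrna1, 0.056 to 0.67 for Chrnb1, -0.11 to 0.76 for Chrnd and -0.14 to 0.48 for Rapsn, each lowest without SDS library 2 and highest without SDS library 3. The cause of these shifts was not tested. Counts of Chrne and Chrng limit their ratio. The planned RefSeq coding length was not run, and GENCODE M21 coding length, chosen after seeing the data, took its place.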
